A study of Mus musculus with 60 samples.

Results

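CREB and cAMP signalling genes form the route by which cyclic AMP reaches transcription. Adenylyl cyclases make cAMP, phosphodiesterases break it down, protein kinase A is released by it and phosphorylates the transcription factor CREB, and CRTC proteins act as coactivators that bind CREB at cAMP response elements. In the hippocampus this route is known for its part in long-term memory. Acetylation of histone H4 at lysine 8 (H4K8ac) is a mark of active promoters and enhancers, and trimethylation of histone H3 at lysine 27 (H3K27me3) is laid down by Polycomb complexes at repressed genes.

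The set held 10 genes chosen by function: the transcription factors Creb1, Crem and Atf2, the coactivators Crtc1, Crtc2 and Crtc3, the adenylyl cyclases Adcy1 and Adcy8, the catalytic subunit Prkaca of protein kinase A, and the phosphodiesterase Pde4d. Their peaks were taken by the gene symbol that the authors assigned. Of 256375 peaks in 12 lists, which named 16994 genes, 278 carried a symbol of the set, 253 of them for H4K8ac and 25 for H3K27me3, and 8 of the 10 genes had a peak of either mark. Crtc2 and Prkaca had none in any list.

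The lists came from CUT&RUN-seq, in which an antibody directs a nuclease to cut out marked chromatin, on hippocampal nuclei of male Emx1-NuTRAP mice. In these mice Cre recombinase expressed from the Emx1 locus switches on tags on nuclei and ribosomes, mainly in excitatory neurons but also in neural progenitors, and both conditions carried the same alleles. Exercised mice (early-life exercise, ELE) had running wheels from postnatal day 21 to 41 and sedentary mice did not. Nuclei came either from a preparation that also yielded RNA, made from both hippocampi (simultaneous isolation, SIT, 4 libraries per mark and condition by the labels) or from a nuclear preparation of a single left or right hippocampus (separate isolation, 3 libraries each), and these 3 arms are called SIT, left and right. Because nuclei were pooled within a preparation, a mark in fewer cells and less of it per cell cannot be told apart. Each combination of mark, condition and arm had 1 deposited peak list, so no spread between mice could be computed and no test was possible within an arm. A two-sided sign-flip permutation over the 3 arms could not go below p = 0.25 and was not used.

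The lists differed in length, which bears on each comparison between conditions. H4K8ac lists held 38136 exercised and 30358 sedentary peaks in SIT, 12168 and 36425 in left, and 13715 and 25159 in right. H3K27me3 lists ranged from 9899 to 25693 peaks. Per the methods, some exercised H4K8ac libraries of both isolations were left out for a high false discovery rate, and the number behind each list, exercised or sedentary, may be lower than the labels give. Depth is unknown here, and the part of depth and of library number in list length was not tested. At H4K8ac promoter peaks, 4 to 6 of 8 excitatory neuron markers and 0 of 8 GABAergic interneuron markers were listed in each of the 6 lists, with 0 to 2 of 5 astrocyte, 1 to 2 of 5 oligodendrocyte, 1 to 2 of 5 microglial and 0 of 5 endothelial markers. H3K27me3 promoter peaks lay on 5 to 7 of the 8 interneuron markers and on 0 to 1 of the 8 excitatory markers.

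Most peaks of the set were of H4K8ac. They numbered 64 exercised and 53 sedentary in SIT, 21 and 56 in left, and 19 and 40 in right. H3K27me3 peaks numbered 10 and 1 in SIT, 3 and 2 in left, and 0 and 9 in right. No H4K8ac peak of the set overlapped an H3K27me3 peak of its own condition and arm, where 0.117 to 0.7% of all H4K8ac peaks did. Of the 253 H4K8ac peaks, 21.3% were promoter peaks (within 3 kb of a start site), 50.6% intronic and 23.7% distal intergenic, beside 23.5%, 37.4% and 28.3% of all H4K8ac peaks. Pde4d alone supplied 144 of the 253, and of the other 109 peaks 21 were at promoters, 27 in introns and 51 distal.

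**Figure D1:**
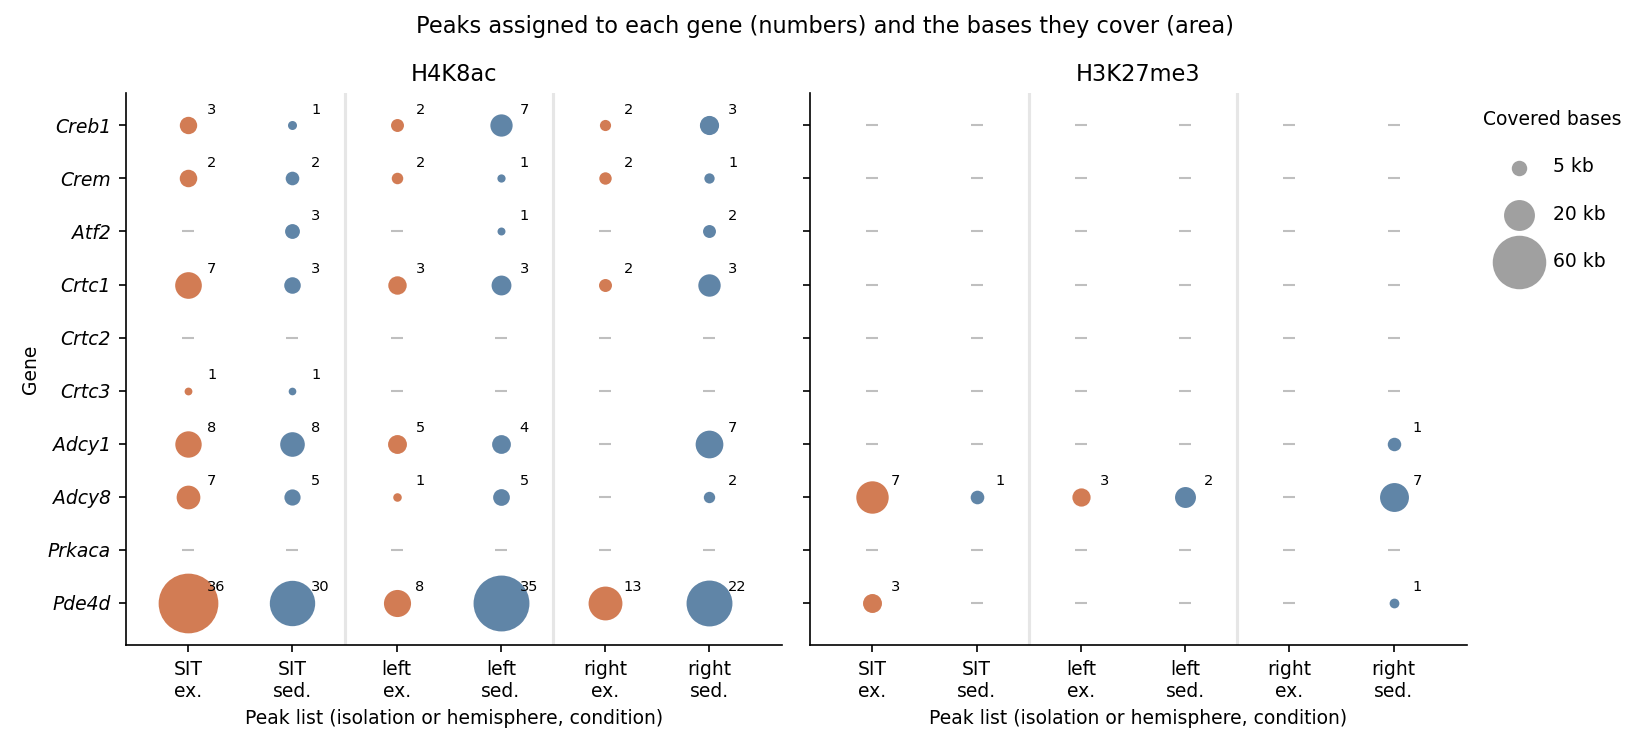
Peaks per gene (numbers) and bases covered (circle area, in kb) in each of the 12 lists, with H4K8ac on the left, H3K27me3 on the right and a dash where no peak was assigned; ex. is exercised and sed. sedentary. Creb1, Crem, Crtc1 and Pde4d have H4K8ac peaks in all 6 lists, Atf2 in the 3 sedentary lists alone, and H3K27me3 is mostly at Adcy8.

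The first question was which genes of the set gained or lost a listed peak with exercise. A gene is called gained when only the exercised list of an arm named it and lost when only the sedentary list did. For H4K8ac, no gene of the set was gained in any arm. Atf2 was lost in all 3 arms, joined in right by Adcy1 and Adcy8, the last not with equal list lengths or the widest 50% of peaks. In left the Atf2 loss ended with equal list lengths, where Crem and Adcy8 were gained, and with the widest 50% of peaks or at least 2 peaks required. Over all genes listed in an arm, gains and losses came to 27.5% and 10.1% in SIT, 3.58% and 51.9% in left, and 9.14% and 36.7% in right. The set's losses were thus 1 of 8 listed genes in SIT, 1 of 7 in left and 3 of 7 in right, counts too few to be read apart from those shares. Creb1, Crem, Crtc1 and Pde4d were in all 6 H4K8ac lists, as were 24.1% of genes listed in any of them.

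For H3K27me3, Pde4d was gained in SIT, no gene was gained or lost in left, and Adcy1, Adcy8 and Pde4d were lost in right. With equal list lengths or the widest 50% of peaks neither Pde4d call was made. Gains and losses over all genes were 41.4% and 1.02% in SIT, 18.5% and 9.13% in left, and 3.12% and 43.6% in right. The directions of the set's calls were those of the larger share in SIT and right. Creb1, Crem, Atf2, Crtc1, Crtc2, Crtc3 and Prkaca had no H3K27me3 peak in any of the 6 lists. Of the 16994 genes named by any list of either mark, 7399 were named for H3K27me3.

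The exercised to sedentary ratios of H4K8ac bases over the set, of which Pde4d supplied more than any other gene, were close to those of the whole lists. The set's peaks covered 130.0 kb in the exercised and 78.5 kb in the sedentary SIT list, a ratio of 1.66, and the ratio of all bases covered by those lists was 1.73. In left the set covered 37.8 kb exercised and 100068 bases sedentary, a ratio of 0.378 beside 0.391 for the whole lists. In right it covered 33.3 and 86.9 kb, a ratio of 0.384 beside 0.437. Without Pde4d the ratios in left and right were 0.647 and 0.219, above that of the lists in left and below it in right. Per Mb covered by its list, the set took 1620 exercised and 1691 sedentary in SIT, 1468 and 1518 in left, and 1360 and 1549 in right, so the order of exercised and sedentary in SIT turned with that scaling. H3K27me3 over the set covered 29.5 and 3.89 kb in SIT, 6.96 and 9.19 kb in left, and 0 and 23.3 kb in right. The ratio was 7.59 in SIT and 0.757 in left, beside 1.88 and 1.25 for the whole H3K27me3 lists, so the left order ran against that of the lists. The SIT value rested on 1 sedentary peak and was 4.05 scaled by list, 2.68 with equal list lengths and 1.79 by gene body, and the left value was 0.31 with equal list lengths and 0 with the widest 50% of peaks. In right the lists had a ratio of 0.36.

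**Figure D2:**
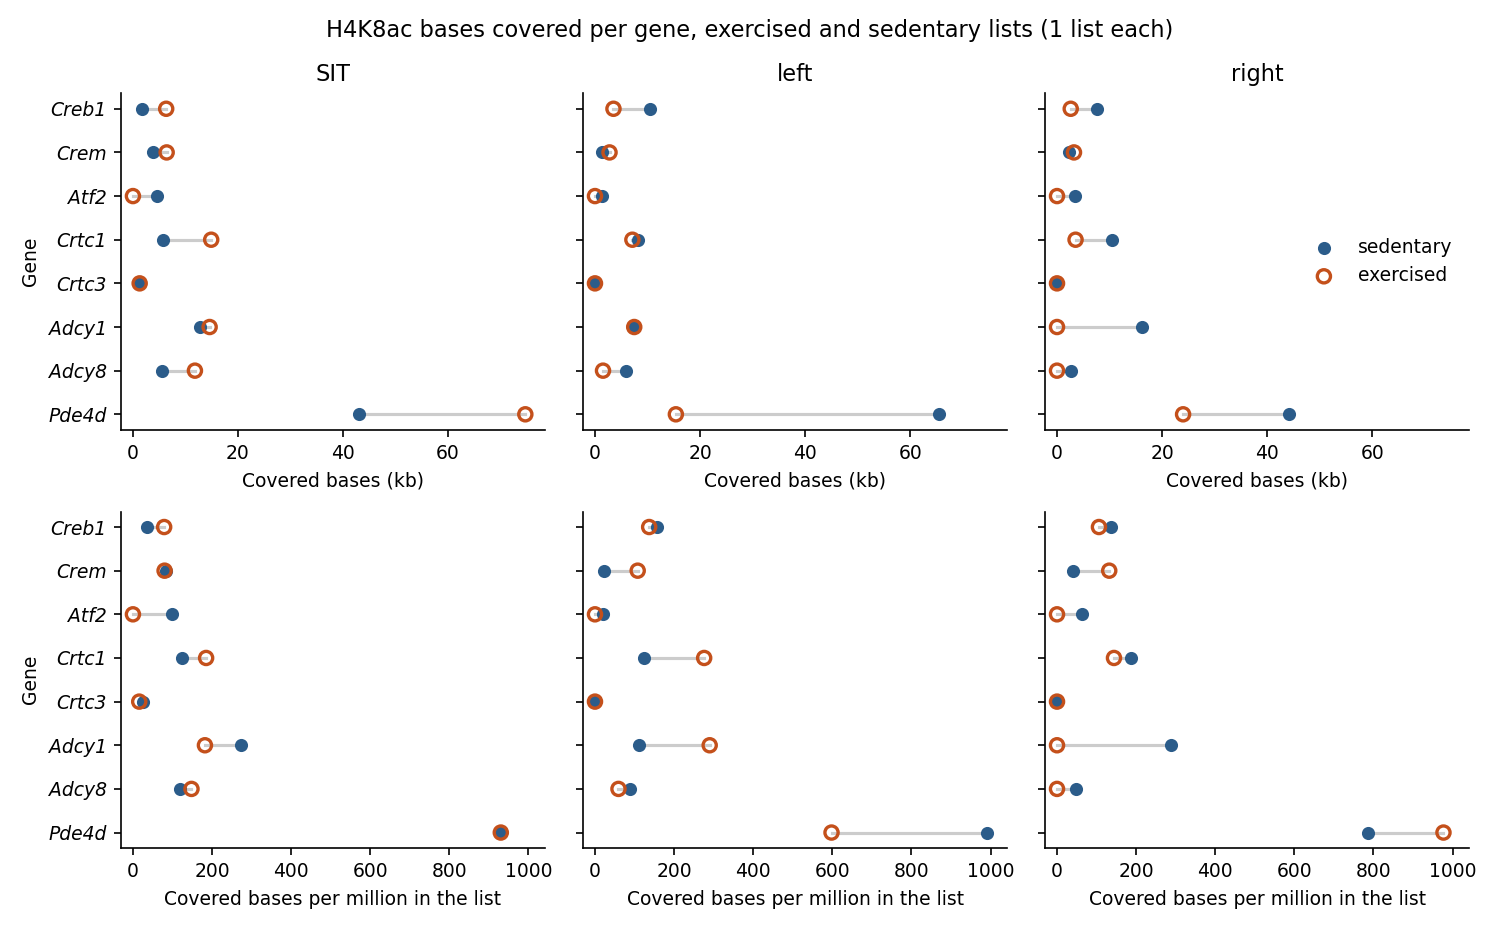
H4K8ac bases covered per gene in the exercised (open) and sedentary (filled) list of each arm, as kb in the upper row and per Mb of the list in the lower row. In kb Pde4d is higher in the exercised list in SIT and higher in the sedentary list in left and right, and per Mb its SIT values coincide near 930.

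Among the transcription factors, Creb1 encodes CREB itself, the main nuclear target of protein kinase A. Creb1 lies on chromosome 1 (64532645 to 64604548, forward strand, mm10). Its H4K8ac peaks numbered 3 exercised and 1 sedentary in SIT, 2 and 7 in left, and 2 and 3 in right. They covered 6.33 and 1.7 kb, 3.52 and 10.4 kb, and 2.61 and 7.7 kb. Exercised was above sedentary in SIT and below it in both separate hemispheres. Per Mb of the list the pairs were 78.9 and 36.7, 137 and 158, and 106 and 137.

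All but 3 of the 18 peaks, those 3 in sedentary left, were distal intergenic. Sedentary left also held 2 H4K8ac peaks inside Creb1 that were assigned to Mettl21a, 64.29 to 68.89 kb from the start. One intergenic region 84.9 kb upstream was present in all 6 lists, and another, 191 kb upstream, was in every list but sedentary SIT. For both, Creb1 has the closest start site of any protein-coding gene, with the next at 169 kb (Mettl21a) and 220 kb (Klf7). Promoter peaks, the first ending 0.13 kb before the gene's start and the other beginning 0.898 kb after it, were in the sedentary left list alone, and the start base itself was inside no peak. The stretch common to all 6 lists was chr1:64447345-64448222, 878 bases, of which 50.8% were repeat-masked in the reference. Over 300-base windows at the middle of its 18 peaks, the median share masked was 21.0%, beside 10.3% over all H4K8ac peaks. Its central 200 bases (chr1:64447684-64447883, forward strand, GRCm38) are shown because this is the most recurrent mark of the CREB gene. In this and the other regions printed, capitals mark TGACG or its reverse complement, the core of a cAMP response element, and this stretch holds none.
Creb1 upstream region: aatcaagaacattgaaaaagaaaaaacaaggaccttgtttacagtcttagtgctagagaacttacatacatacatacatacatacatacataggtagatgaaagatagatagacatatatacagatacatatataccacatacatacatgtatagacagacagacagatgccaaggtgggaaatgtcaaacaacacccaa

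Atf2 encodes a CREB-related factor that binds similar elements and is activated by stress kinases. It lies on chromosome 2 (73816509 to 73892639, reverse strand). It had 0 exercised and 3 sedentary H4K8ac peaks in SIT, 0 and 1 in left, and 0 and 2 in right. The sedentary peaks covered 4.61, 1.33 and 3.5 kb. The conditions did not overlap, with every sedentary list above 0 and every exercised list at 0: Atf2 was lost in all 3 arms, as were 121 (1.58%) of the 7640 genes listed in every arm. The left call, which did not hold under each alternative, rested on 1 peak of 1335 bp. The nearest H4K8ac peak of any gene to the Atf2 start site was 0.504, 2.03 and 0.461 kb away in the sedentary lists and 116, 146 and 150 kb away in the exercised lists. All but 1 of the 6 peaks were classed as promoter, and those nearest to the start site lay upstream of it. A further promoter peak of sedentary SIT lay inside the gene, 2.3 kb from another start site. The common part of the 3 sedentary lists was 219 bases, chr2:73895054-73895272, 2.52 kb upstream. The 200 bases at its middle (chr2:73895063-73895262, forward strand, GRCm38) are printed because this is where the 3 losses met, and they hold no TGACG.
Atf2 upstream region: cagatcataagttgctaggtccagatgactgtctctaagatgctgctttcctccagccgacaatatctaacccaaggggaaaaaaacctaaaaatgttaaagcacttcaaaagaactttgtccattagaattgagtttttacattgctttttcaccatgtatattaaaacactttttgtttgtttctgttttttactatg

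Crem encodes a cAMP-responsive modulator, and a promoter inside the gene gives rise to the short repressor isoforms known as ICER, which are themselves induced through CREB. Crem had 2 exercised and 2 sedentary H4K8ac peaks in SIT, 2 and 1 in left, and 2 and 1 in right, all 10 of them at promoters. They covered 6.42 and 3.89 kb, 2.77 and 1.42 kb, and 3.23 and 2.23 kb, with ratios of 1.65, 1.95 and 1.45, and no other gene of the set had more exercised than sedentary bases in all 3 arms. Per Mb of the list the values were 80 and 83.8 in SIT, 108 and 21.6 in left, and 132 and 39.7 in right, so the order held in left and right and not in SIT.

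Crem lies on chromosome 18 (3266048 to 3337748, reverse strand), and its peaks fell in a pair of places. Peaks at the 5′ start of the gene were in all 3 exercised lists and in 1 sedentary list (SIT). Peaks about 56.4 kb into the gene, over start sites of short protein-coding transcripts, were in 2 exercised lists (SIT and right) and in all 3 sedentary lists. Those internal start sites were inside a peak in 4 lists, all but exercised left and sedentary left. The internal region spanned 3659 bases and held 3 copies of the full palindromic element TGACGTCA and 6 of TGACG, counted on both strands with those inside the full element included. The 5′ region spanned 3949 bases and held 0 and 5. In 300-base windows at peak middles, TGACGTCA was held by 3 of the 10 Crem windows, which are overlapping windows of the 1 internal region in exercised SIT, exercised right and sedentary SIT, and by no window of the other genes. Over all lists, where a locus also counts once per list, 518 (0.332%) of 155960 H4K8ac windows held it. TGACG was in 35 (13.8%) of the 253 windows of the set and in 11% of all. A match is a description of the letters and not evidence of binding.

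The coactivators differed among themselves. Crtc3 (chromosome 7, 80586627 to 80688877, reverse strand) had 1 H4K8ac peak in each SIT list and none in the separate isolations, and the 2 did not overlap. The sedentary peak lay over the gene's start, and the exercised one was intergenic, beyond the gene's 3′ end. Peaks inside Crtc3 also carried another symbol, Gm15880, 3 in exercised SIT and 2 in sedentary left. Crtc2 (chromosome 3, 90254163 to 90264125, forward strand, 9.96 kb long) had no peak under its symbol. The nearest H4K8ac peak to its start was 5.12 to 133 kb away and belonged to neighbouring genes.

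Crtc1, the CRTC best known in neurons for moving from synapse to nucleus, was marked mainly inside the gene. It lies on chromosome 8 (70382355 to 70439579, reverse strand). Its H4K8ac peaks numbered 7 exercised and 3 sedentary in SIT, 3 and 3 in left, and 2 and 3 in right. They covered 14.9 and 5.74 kb, 7.12 and 8.26 kb, and 3.53 and 10.5 kb. The order of the conditions was exercised above sedentary in SIT and the reverse in left and right, and per Mb of the list it turned in left, with 276 and 125. By share of its length, Crtc1 had the most H4K8ac of the set: 24.0% and 10% of the gene body in SIT, 8.88% and 10.1% in left, and 6.17% and 18.4% in right. The lists as wholes covered 0.899 to 2.94% of the genome.

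A block in intron 1 was listed in all 6 lists, 22.1 kb into the gene. Blocks 30.3 kb (at exon 2) and 40.8 kb (at exon 7 or intron 6) from the start were each in 4 lists, the former in all 3 exercised lists and sedentary right, the latter in all 3 sedentary lists and exercised SIT. A further 3 of the 21 peaks formed a region 14.2 kb upstream, in exercised SIT, exercised left and sedentary left, and count in the kb above. They were classed as 5′ UTR or intron though outside Crtc1, and the next coding gene upstream, Klhl26, is 10.6 kb from Crtc1. The Crtc1 start site was in no H4K8ac peak, and the nearest peak of any gene was 13.1 to 20.2 kb away in the 6 lists. The common stretch of the intron 1 block was chr8:70416584-70418401, 1818 bases with 2.37% repeat-masked and 2 copies of TGACG. The 200 bases printed (chr8:70417467-70417666, forward strand, GRCm38) were chosen within it to include a copy, in capitals.
Crtc1 intron 1 region: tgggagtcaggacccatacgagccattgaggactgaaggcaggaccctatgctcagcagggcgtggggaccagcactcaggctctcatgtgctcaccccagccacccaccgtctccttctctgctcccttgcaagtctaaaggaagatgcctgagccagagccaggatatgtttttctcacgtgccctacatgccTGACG

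**Figure D3:**
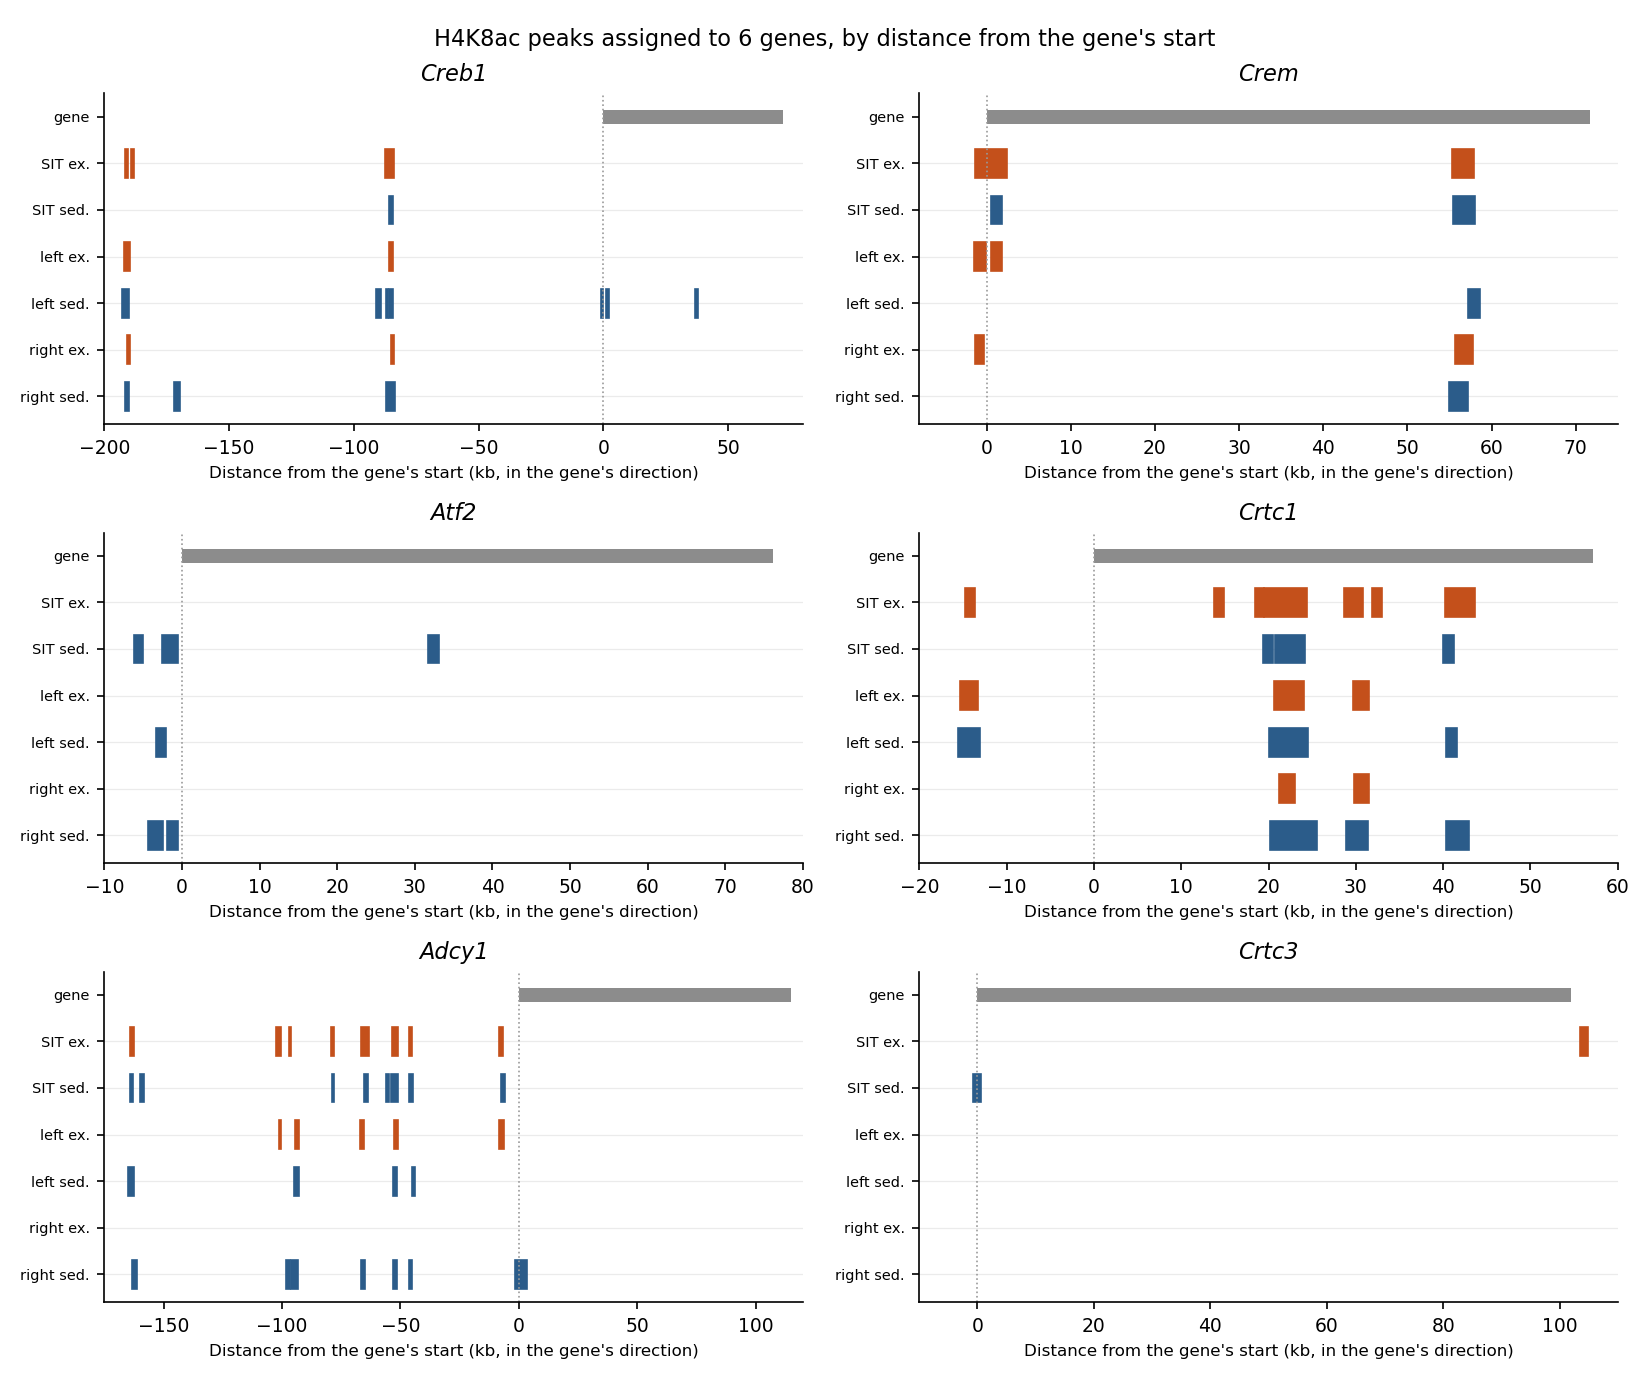
H4K8ac peaks of 6 genes in the 6 lists (rows; exercised orange, sedentary blue), by distance in kb from the start of the gene (grey bar) in its own direction. Creb1 and Adcy1 peaks lie upstream of the gene except in the sedentary left and sedentary right list respectively, Crtc1 peaks inside it except for a region 14.2 kb upstream, Crem peaks at both of its promoters, and Atf2 rows are empty in the exercised lists.

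Adcy1 encodes a calcium-stimulated adenylyl cyclase of neurons that couples synaptic activity to cAMP. It lies on chromosome 11 (7063489 to 7178506, forward strand). It had 8 H4K8ac peaks in each SIT list, 5 exercised and 4 sedentary in left, and 0 and 7 in right. They covered 14.6 and 12.7 kb in SIT, 7.47 and 7.38 kb in left, and 0 and 16.1 kb in right. Exercised and sedentary were close in kb in SIT and left, with ratios of 1.15 and 1.01, but not per Mb of the list, where the values were 182 and 273 in SIT, 290 and 112 in left, and 0 and 287 in right. Only right lacked an exercised peak, the nearest there being 437 kb from the start. Of the 32 peaks, 31 were distal intergenic, upstream of the gene within the 226 kb that separate it from the next coding gene, and 1, in sedentary right, covered the start site. Apart from that peak no H4K8ac peak fell in the gene's 115 kb.

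Those upstream peaks formed 11 separate regions, of which 1, 52.2 kb before the start, was in 5 lists and 3, at 45.6, 65.4 and 163 kb, were in 4. Over all H4K8ac regions 6.74% were in 5 lists and 8.34% in 4. The region at 52.2 kb was in all lists but exercised right. For the region at 163 kb another coding gene, Gm11983, had the closer start, at 62.6 kb. The common stretch at 52.2 kb was chr11:7010592-7012084, 1493 bases, 21.5% repeat-masked, with no TGACG. Its middle 200 bases (chr11:7011238-7011437, forward strand, GRCm38) are shown as the most recurrent Adcy1 region.
Adcy1 upstream region: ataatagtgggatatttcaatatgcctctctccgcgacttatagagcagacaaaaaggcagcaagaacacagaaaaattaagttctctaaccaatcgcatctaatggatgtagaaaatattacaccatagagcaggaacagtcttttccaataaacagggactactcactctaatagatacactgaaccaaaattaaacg

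Adcy8 encodes the other calcium-stimulated cyclase. It lies on chromosome 15 (64697084 to 64922296, reverse strand). Its H4K8ac peaks numbered 7 exercised and 5 sedentary in SIT, 1 and 5 in left, and 0 and 2 in right, and covered 11.8 and 5.5 kb, 1.53 and 5.87 kb, and 0 and 2.71 kb. In SIT exercised was higher and in left and right sedentary was, as also per Mb of the list, with 148 and 119, 59.4 and 89.0, and 0 and 48.3. Of 16 merged H4K8ac regions 14 were in 1 list, where 49.9% of all H4K8ac regions were. The most frequent, 201 kb into the gene in intron 13, was in 4 (exercised SIT and the 3 sedentary lists). The start site was inside a peak in exercised SIT and in sedentary right.

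Adcy8 held 20 of the set's 25 H3K27me3 peaks. They numbered 7 exercised and 1 sedentary in SIT, 3 and 2 in left, and 0 and 7 in right, covering 22 and 3.89 kb, 6.96 and 9.19 kb, and 0 and 17.5 kb. Per Mb of the list they covered 162 and 53.8, 75.2 and 124, and 0 and 153 bases. All were distal intergenic and upstream, in a group whose nearer edges were 130.0 to 146 kb from the start and another at 365 to 430.0 kb. None touched the gene, and the nearest H3K27me3 peak was 130.0 kb from the start or farther in every list. The region at 138 kb was in 5 lists, all but exercised right, and is 45.7 kb from the start of another coding gene, Gm21961. Exercised right listed no H3K27me3 peak for any gene of the set. In the left lists that region was met by separate exercised and sedentary peaks joined only through peaks of other lists: none of the 3 exercised peaks overlapped either of the 2 sedentary ones, although 61.4% of all exercised left H3K27me3 peaks overlapped a sedentary peak.

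**Figure D4:**
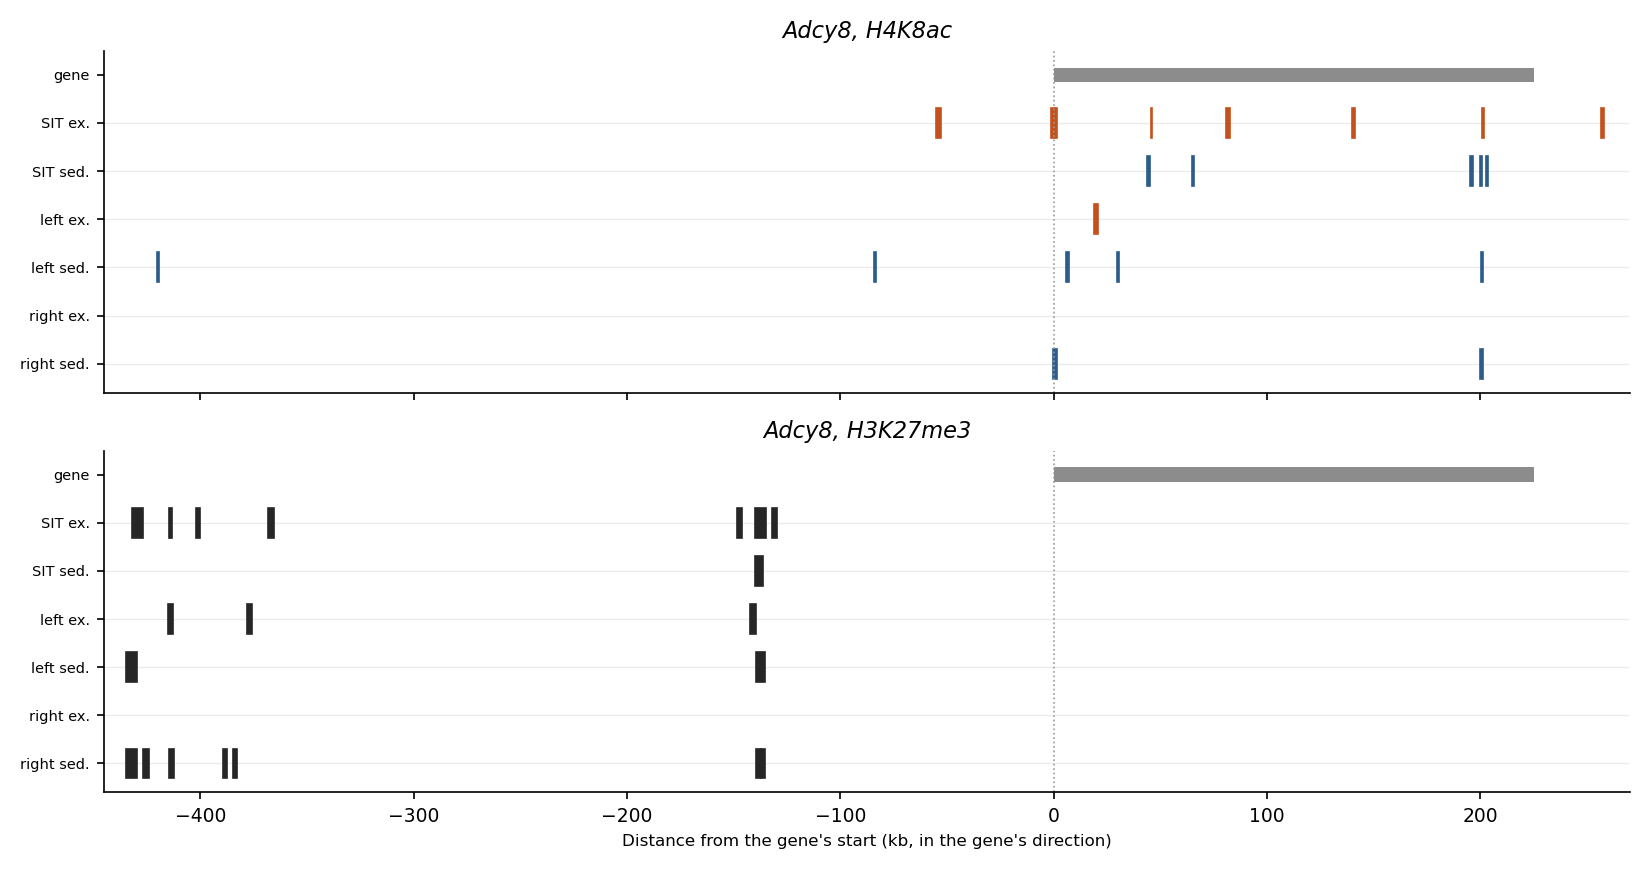
Peaks assigned to Adcy8 in each list (rows), H4K8ac above (exercised orange, sedentary blue) and H3K27me3 below (black), by distance in kb from the start of the gene (grey bar). H4K8ac peaks lie mostly within the gene, and all H3K27me3 peaks lie upstream of it, their nearer edges between 130.0 and 430.0 kb from its start.

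Prkaca, a catalytic subunit of protein kinase A, had no peak of either mark under its symbol (chromosome 8, 83972993 to 83996443, forward strand). The nearest H4K8ac peak to its start was 31.1 to 96.0 kb away over the 6 lists, and the nearest H3K27me3 peak 38.0 to 69.8 kb. Prkacb, another catalytic subunit that is outside the set, had peaks of both marks in all 6 lists, and is named after its values were seen. A Prkaca promoter is printed as the only one that held TGACG among the RefSeq promoters searched, which had none for Crem, Crtc2 or Adcy8. Both copies are in capitals as CGTCA, the reverse complement (RefSeq, GRCm38.p6, chr8:83972728-83973027, forward strand, 250 bases before to 50 after the start). Of the 8 promoters that RefSeq gave for 7 of the 10 genes, 0 held TGACGTCA, as did 1.79% of 32851 mouse promoters, and 1 held TGACG, as did 20.8%.
Prkaca promoter: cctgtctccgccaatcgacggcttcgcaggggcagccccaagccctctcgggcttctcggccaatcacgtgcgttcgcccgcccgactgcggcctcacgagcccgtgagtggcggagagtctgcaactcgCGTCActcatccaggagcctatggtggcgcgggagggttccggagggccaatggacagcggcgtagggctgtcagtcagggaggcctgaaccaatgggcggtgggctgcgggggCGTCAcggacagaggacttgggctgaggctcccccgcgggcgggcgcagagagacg

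Pde4d, the phosphodiesterase that ends cAMP signals and has many promoters, had the most peaks of the set in every H4K8ac list. It spans 1504 kb of chromosome 13 (108449948 to 109953461, forward strand). It had 36 exercised and 30 sedentary H4K8ac peaks in SIT, 8 and 35 in left, and 13 and 22 in right. They covered 74.7 and 43.1 kb, 15.4 and 65.4 kb, and 24.0 and 44.1 kb. The exercised list was the higher in SIT and the lower in left and right. Per Mb of the list the values were 930 and 929 in SIT, 598 and 992 in left, and 977 and 787 in right, so the order was lost in SIT and turned in right. Length enters these sums: the share of the gene body covered was 4.24% and 2.55% in SIT, 1.03% and 4.02% in left, and 1.5% and 2.53% in right. Among 2492 protein-coding genes over 100 kb the median share was 0.233 to 2.33% over the same lists.

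The 144 peaks merged into 65 regions, some of them beyond the gene's 3′ end, which also count in the kb above. The farthest of these, 1644 kb from the start and in 5 lists, was inside another gene, Rab3c. Of the 65 regions 37 were in a single list and 3 in all 6, beside 49.9% and 5.99% of all H4K8ac regions. One of the 3 lay 666 kb into the gene over the start sites of shorter transcripts, among them the protein-coding ENSMUST00000120671, whose start was inside a peak in 5 lists. The other 2 were intronic, 722 and 1269 kb from the gene's start. Each was joined through overlaps between lists, and no base of either was common to more than 5 lists. Internal protein-coding starts at 992 and 1477 kb were each inside a peak in 3 lists. The 5′ end of the longest transcript was in none, with the nearest H4K8ac peak 74.9 to 310 kb from it. In SIT, 13 of the 36 exercised Pde4d peaks overlapped a sedentary peak and 15 of the 30 sedentary peaks an exercised one, beside 43.9% and 59.0% of all peaks of those lists. In left, 6 of the 8 exercised peaks overlapped a sedentary peak and 6 of the 35 sedentary peaks an exercised one, beside 73.1% and 25.2%, and in right 9 of 13 and 11 of 22, beside 68.0% and 35.6%. The stretch of the promoter region present in all 6 lists was chr13:109115784-109116277, 494 bases. Its middle 200 bases (chr13:109115931-109116130, forward strand, GRCm38) are shown as the most recurrent internal promoter of the gene, and hold no TGACG.
Pde4d internal promoter: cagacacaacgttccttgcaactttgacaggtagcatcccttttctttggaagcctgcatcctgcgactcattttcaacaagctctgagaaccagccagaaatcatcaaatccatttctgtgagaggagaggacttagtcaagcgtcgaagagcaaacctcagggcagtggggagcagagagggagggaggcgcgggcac

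H3K27me3 at Pde4d depended on which gene a peak was assigned to. Under the Pde4d symbol there were 3 exercised peaks and 0 sedentary in SIT, none in left, and 0 and 1 in right. Each of these 4 was in 1 list only. A block of H3K27me3 840.0 to 866.1 kb into Pde4d was nevertheless present in all 6 lists, with 2 to 4 peaks covering 10.6 to 22.8 kb per list, and its peaks were assigned to Mir582, a microRNA gene inside Pde4d whose start is 874.8 kb from that of Pde4d. The block covered 22.8 kb exercised and 16.3 kb sedentary in SIT, 18.6 and 21.9 kb in left, and 10.6 and 18.9 kb in right. Counted by position, then, Pde4d carried H3K27me3 in both conditions of every arm, and the gain in SIT and the loss in right were of peaks under its own symbol alone.

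**Figure D5:**
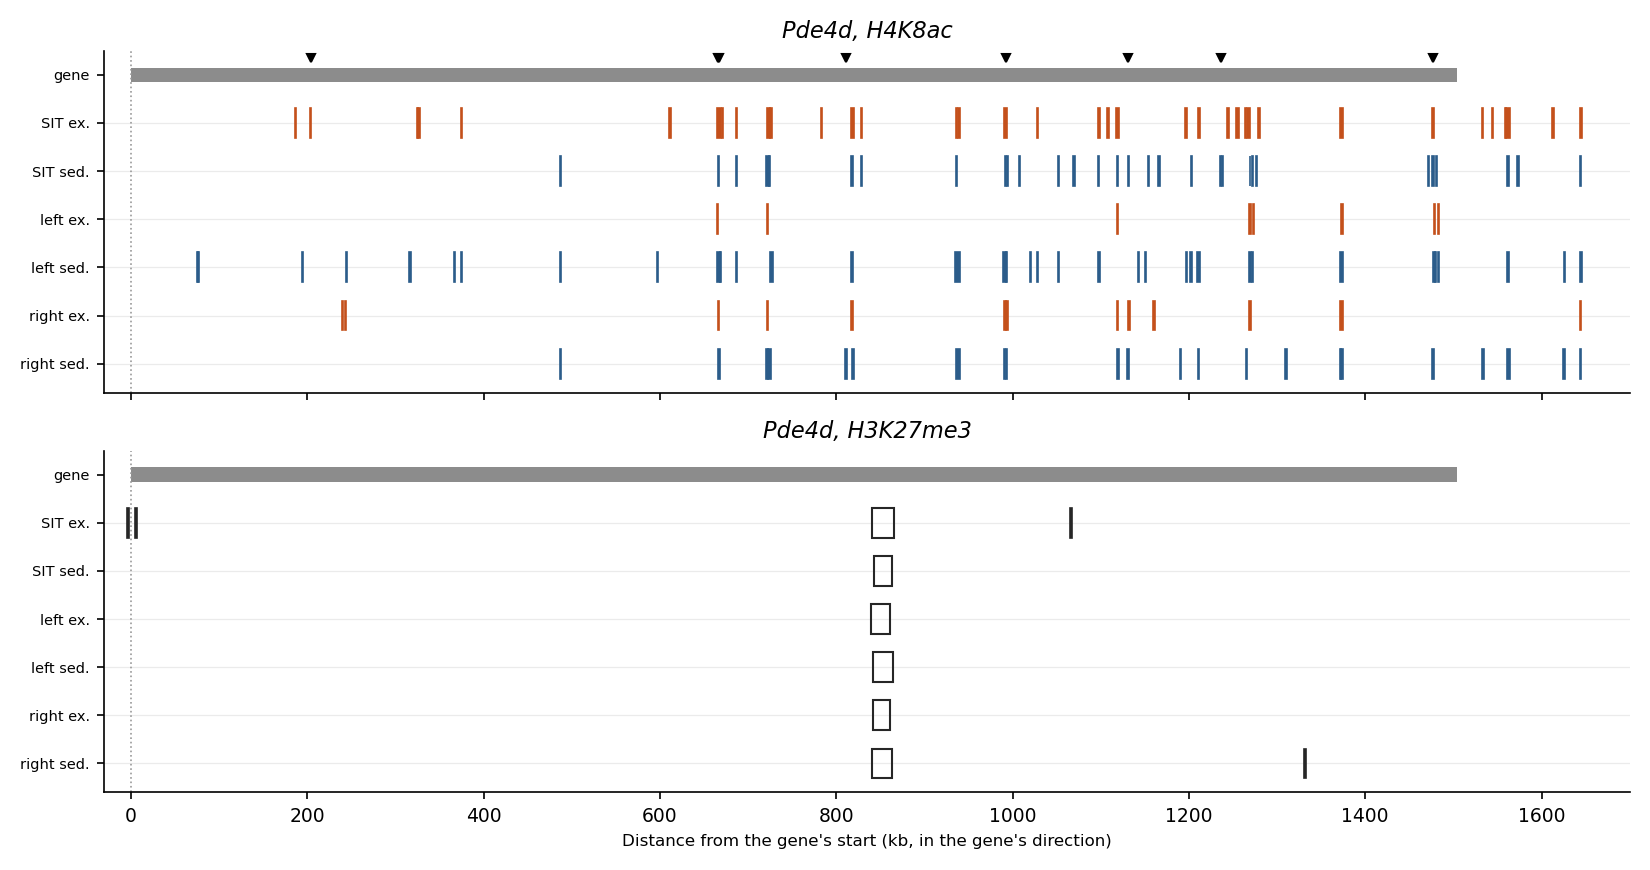
Peaks along Pde4d in each list (rows) by distance in kb from its first start site, H4K8ac above (exercised orange, sedentary blue; triangles, start sites of transcripts that were inside a peak in at least 1 list) and H3K27me3 below (black, assigned to Pde4d; outlined, the span of peaks assigned to Mir582). The outlined block near 840.0 to 866.1 kb is in all 6 lists.

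The genes whose H4K8ac bases per Mb of the list varied most like Pde4d over the 6 lists, among 5994 genes with at least 6 peaks, were BB123696 (Pearson r = 0.981), A330076C08Rik (r = 0.977) and Cntn4 (r = 0.971), a neuronal cell adhesion gene. In all 3 the exercised left list was at 0, the list in which Pde4d was lowest. With 6 points that share their lists, 59 genes had r above 0.9, and this likeness is a description.

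Start sites of the set were few inside peaks, as over all genes. Summed over the 6 H4K8ac lists, the gene's first start site was inside a peak 5 times (Crem, Crtc3, Adcy1 and Adcy8, the last in 2 lists), with 0 to 2 of the 10 genes per list, internal start sites of Crem and Pde4d not counted. Among all 21938 protein-coding genes the share was 4.74 to 18.5% per list. For H3K27me3 no start site of the set was inside a peak, beside 4.99 to 10.4% of all.

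Isolation and hemisphere were compared within a condition. For H4K8ac in sedentary mice, 26 (49.1%) of the 53 SIT peaks of the set overlapped a left peak and 24 (45.3%) a right one, where 51.7% and 48.7% of all SIT peaks did. Of the 56 sedentary left peaks 24 (42.9%) overlapped a right peak, and of the 40 right peaks 23 (57.5%) overlapped a left one, beside 46.2% and 64.1% of all. In exercised mice 15 (23.4%) of 64 SIT peaks overlapped a left peak and 14 (21.9%) a right one, beside 25.4% and 27.1%, and 10 (52.6%) of 19 right peaks overlapped a left one, beside 42.4%. The H3K27me3 peaks were few and mostly of Adcy8. In exercised mice 2 (20%) of 10 SIT peaks met a left peak, beside 55.5% of all, and the right list held no H3K27me3 peak of the set to compare. In sedentary mice 2 (22.2%) of 9 right H3K27me3 peaks met a SIT peak and 3 (33.3%) a left one, beside 45.7% and 52.6%, while the 1 SIT peak met both and both left peaks met a right one.

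A list of 53 other genes of the route (further cyclases, G proteins, kinase subunits and inhibitors, anchors, phosphodiesterases, cAMP effectors, CREB relatives, coactivators and kinases on CRTC) was described beside the set. For H4K8ac, those gained, those lost and those in both conditions numbered 5, 4 and 28 in SIT, 2, 16 and 22 in left, and 2, 11 and 21 in right, and 42 were listed at least once. For H3K27me3 the counts were 10, 0 and 9 in SIT, 1, 0 and 11 in left, and 1, 6 and 9 in right. As shares of those listed, H4K8ac losses were 10.8%, 40% and 32.4%, beside 10.1%, 51.9% and 36.7% over all genes, and gains were 13.5%, 5.0% and 5.88%, beside 27.5%, 3.58% and 9.14%. H3K27me3 gains were 52.6%, 8.33% and 6.25%, beside 41.4%, 18.5% and 3.12%, and losses 0, 0 and 37.5%, beside 1.02%, 9.13% and 43.6%.

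For H4K8ac, 9 of the 42 listed genes (21.4%) were lost in at least 2 arms and gained in none, beside 11.8% of all genes listed, and 1 (2.38%) was gained in at least 2 and lost in none, beside 1.59%. For H3K27me3 the counts were 0 and 1 (5.0%) of 20, beside 1.65% and 3.99%. Opposite calls in different arms were made for 5 genes per mark, 11.9% of those listed for H4K8ac and 25.0% for H3K27me3, beside 16.3% and 23.8% of all. They were Pde8a, Ppp1r1b, Crebrf, Sik1 and Sik3 for H4K8ac and Gnal, Pkia, Akap12, Pde7b and Rapgef3 for H3K27me3, named after their values were seen.

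The genes with a repeated direction were of several roles. Akap5, an anchor that holds protein kinase A at synapses, was lost for H4K8ac in all 3 arms, like Atf2, with 1 sedentary peak in SIT, 2 in left and 1 in right. Sik2, a kinase that keeps CRTC proteins in the cytoplasm, had 2 peaks in each SIT list and was lost in left (0 against 4) and right (0 against 1). Crebl2 and Creb5, relatives of CREB, were likewise shared in SIT and lost in left and right. The cyclases Adcy5 and Adcy3 were unlisted in SIT and lost in left and right, and the anchor Akap12, the regulatory subunit Prkar2b and the stimulatory G protein gene Gnas were lost in SIT and left and unlisted in right. Pde4a, a close relative of Pde4d, was the only one gained for H4K8ac in a pair of arms, with 2 exercised peaks against 0 in SIT and 1 against 0 in right, and it was shared in left with 1 and 3. Prkar2b was gained for H3K27me3 in SIT (4 against 0) and right (1 against 0). Of the genes lost for H4K8ac, Creb5 (23 to 36 peaks per list) and Gnas (2 to 4) had H3K27me3 peaks in all 6 lists.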

How the data were processed

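The 60 CUT&RUN-seq samples (H4K8ac, H3K27me3 and IgG) were grouped by antibody, condition and arm as the labels give them; the 20 IgG samples are not analysed here. The authors' methods name Bowtie2 (2.4.1) for alignment and SEACR for peak calling (stringent, 0.01). They left out some exercised H4K8ac libraries with a high false discovery rate and assigned each peak to the nearest transcript start with ChIPseeker (1.8.6), mm10 known genes, with a promoter window of 3 kb. How libraries were combined into a list is not given in the sources used here, so each list is 1 pooled value. The deposited tables hold, per the file headers, peak positions, widths in bp, an annotation class and a symbol, with no counts, signal or p-values; depth and precision are therefore unknown.

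The members and the lists of other genes were chosen with earlier results of these data known. All 10 members were described. Other genes were named where H4K8ac or H3K27me3 was gained or lost in at least 2 arms in 1 direction (at most 10, most covered bases first), with the 3 genes most like Pde4d. Peaks were counted per symbol, widths summed, and peaks of 1 gene overlapping by at least 1 bp merged. Gene coordinates came from GENCODE M21 (99.0% of assigned transcripts matched) and sequences from GRCm38.p6. Tools were Python with pandas and numpy; interval functions were tested on simulated data. Alternatives were other peak classes, gene bodies, wider peaks, equal list lengths and scaling by list.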

Additional observations from a re-analysis of the deposited data

Results flagged for a closer look

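For 6 results, exercised minus sedentary covered bases had one sign in SIT and the other, or zero, in left and right. These differences between arms were not tested, since each arm had 1 list per condition. For H4K8ac the differences in SIT, left and right were 4.63, -6.86 and -5.09 kb at Creb1, 9.14, -1.14 and -6.99 kb at Crtc1, 6.34, -4.34 and -2.71 kb at Adcy8, and 31.6, -50.0 and -20.2 kb at Pde4d. For H3K27me3 they were 18.1, -2.23 and -17.5 kb at Adcy8 and 7.53, 0 and -2.0 kb at Pde4d. Per Mb of the list the H4K8ac pattern did not hold at Crtc1, with an exercised to sedentary ratio of 2.21 in left, nor at Pde4d, with 930 against 929 in SIT and 977 against 787 in right. The H4K8ac lists as wholes moved in the same way, with exercised to sedentary ratios of all covered bases of 1.73, 0.391 and 0.437, and the H3K27me3 lists had ratios of 1.88, 1.25 and 0.36. The part of list length in these 6 results was not tested.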

How the results depend on the processing

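Of 107 alternative values, 72 stayed within 1.5 times the value reported, 34 moved further and 1 reversed; with counts this small, a move is often of 1 gene. Scaled by all bases of the list, the H4K8ac ratio of exercised to sedentary bases became 0.958 in SIT (reversed), 0.967 in left and 0.878 in right, and the H3K27me3 ratio in SIT 4.05. With equal numbers of peaks the ratios were 0.703 for H4K8ac left, 2.68 for H3K27me3 SIT and 0.31 for H3K27me3 left; with the widest 50% of peaks the last was 0, and H3K27me3 SIT had no value because no sedentary peak remained. Without Pde4d, H4K8ac left and right were 0.647 and 0.219. By gene body, H3K27me3 was 1.79 in SIT and 0.507 in right. For H4K8ac in SIT, 1 gene was gained with promoter peaks alone (Adcy8), with at least 2 peaks (Creb1) or with the widest 50% (Adcy8), and 2 were lost with promoter peaks alone or without distal peaks (Atf2 and Crtc3). In left, 1 was gained with at least 2 peaks (Crem) and 2 with equal numbers (Crem and Adcy8), and 2 were lost with promoter peaks or without distal peaks (Creb1 and Atf2), 4 by gene body (Creb1, Atf2, Crtc2 and Crtc3) and 0 with equal numbers. In right, 1 was gained with at least 2 peaks (Crem), Adcy8 was no longer lost with equal numbers or the widest 50%, and Creb1 (widest 50%) or Crtc2 (gene body) was lost in addition. Atf2 was thus no longer lost in left with equal numbers, at least 2 peaks or the widest 50%, where neither list named it, while Adcy8 (at least 2 peaks) or Adcy1 (widest 50%) was lost there. For H3K27me3, gains in SIT were 2 with at least 2 peaks and 0 by gene body or with equal numbers, losses in left 1 with the widest 50%, and losses in right 0 with promoter peaks or by gene body and 1 without distal peaks or with at least 2. The Pde4d gain in SIT also ended with the widest 50%, where Adcy8 was gained, and its loss in right with the widest 50%, equal numbers or at least 2 peaks. Under a reciprocal overlap of 50%, 7 in place of 14 H4K8ac regions and 0 in place of 1 H3K27me3 region were in 5 or 6 lists. With 1 kb on either side, H4K8ac start sites numbered 11 in place of 5. No paired analysis was possible because each list pools the libraries of its group, and for the same reason no replicate could be left out.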
